A study of Mus musculus with 8 samples.

Results

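The genes of the translation initiation and elongation factors were compared between RNA recovered with the decapping co-activator DCP1A and input RNA of the mouse ovary. Members were picked out by gene symbol, in a choice made with earlier results of these data known. They are all rows named Eif1 to Eif6 or Eef1 and Eef2, without the eIF2 kinases, the Argonaute genes once named Eif2c, the eIF4E-binding proteins and the eIF4E transporter, together with Pabpc1, Pabpc4 and Tpt1. The rule found 57 of the 23107 genes in the deposited table, and 54 of these had enough counts to be tested. DCP1A is a component of processing bodies, the cytoplasmic granules in which mRNA is stored and decapped, and the study sought the RNAs bound to it in primary oocytes, in work on RNA storage in the Balbiani body, an assembly of organelles in young oocytes. The tissue was the cortex of ovaries at postnatal day 8, taken as 4 input samples and 4 samples immunoprecipitated with an antibody to DCP1A (RIP). Strain, genotype and the number of animals per sample are stated in no source used here, so the spread between samples may be technical. No library from a control antibody was analysed here, so every difference below is RIP against input and not against background binding.

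Translation starts when the ternary complex of eIF2, GTP and initiator tRNA, with eIF1, eIF1A, eIF3 and eIF5, joins the small ribosomal subunit. The eIF4 factors bind the mRNA cap, unwind the leader and, through eIF4G, contact the poly(A)-binding protein, after which eEF1 delivers aminoacyl-tRNA and eEF2 moves the ribosome along. The mRNAs of several of these factors begin with a C followed by a stretch of pyrimidines, the 5′ terminal oligopyrimidine (TOP) element, through which mTOR signalling controls their own translation.

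The annotated transcription starts of members are shown because they differ in runs of pyrimidines nearby. RefSeq promoters of build GRCm38.p6, the patch release of mm10, were matched by symbol for 44 of the 57 members. Each window below runs 5′ to 3′ from 10 bases before the annotated start to 20 bases from it on, and capitals mark the longest run of at least 5 pyrimidines that opens with C within 10 bases of the start.
Eef1a1 (chr9:78481705-78481734, minus strand): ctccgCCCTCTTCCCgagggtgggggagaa
Eif2s3x (chrX:94212632-94212661, minus strand): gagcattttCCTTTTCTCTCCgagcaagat
Eif3f (chr7:108934405-108934434, plus strand): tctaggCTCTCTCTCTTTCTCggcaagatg
Eif3l (chr15:79075213-79075242, plus strand): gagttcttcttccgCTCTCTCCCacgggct
Eif2b5 (chr16:20498807-20498836, plus strand): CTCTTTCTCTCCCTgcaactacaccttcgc
Eif4g1 (chr16:20672717-20672746, plus strand): gcgcagctccgCCCTCTgcgccggtcacgt
Eef1b2 (chr1:63176821-63176850, plus strand): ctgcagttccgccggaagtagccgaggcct
Eef2 (chr10:81176621-81176650, plus strand): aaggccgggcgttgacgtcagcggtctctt
Tpt1 (chr14:75845246-75845275, plus strand): cgctgacgacagttccgggggagccgcgga
Such a run of 5 or more was found on the sense strand of the best window of 11 of 42 tested members (26.2%), against 35.7% of 10222 tested genes with a window and 29.7% of all 32851 promoters of the table. A run of 8 or more was found for 7 members (16.7%), against 9.93% of tested genes and 7.82% of promoters. These 7 were Eif3f with a run of 15, Eif2b5 with 14, Eif2s3x with 12, Eef1a1 with 10, Eif3l with 9, and Eif2b2 and Eif4e with 8 each. Marked runs can open before or after the annotated start, as at position -5 for Eef1a1 and 5 for Eif3l. Capitals alone therefore do not show a TOP element. Eef1b2, Eef2, Eif4b and Tpt1, which are known as TOP mRNAs, had no run of 5 or more opening within 10 bases of the start. The Eef2 window ends in such a run, which opens further from the start and is unmarked. The Eif4b window, not shown, also holds one that opens further away. Eef1d, Eef1g, Eif3e, Eif3h and Pabpc1, known as TOP mRNAs too, had no window. An annotated start can lie away from the start used in a tissue, for genes with and without a marked run. The median log2 fold change of RIP over input was -0.0054 for the 7 members with a run of 8 or more and -0.14 for the other 35, and -0.0016 and -0.016 for the tested genes split the same way. Split at a run of 5 or more, the medians were 0.12 for 11 members and -0.23 for the other 31, and -0.014 and -0.015 for the tested genes. These differences were not tested.

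No member passed the test between RIP and input. In edgeR's quasi-likelihood fit, with p-values adjusted over 14667 genes by the Benjamini-Hochberg method, 0 of 54 tested members were called lower, where 6 genes in all (0.0409%, or 0.0682% of genes at or above the median level) were, and 0 were called higher, where 0 genes in all (0%) were. DESeq2 and limma voom also called 0 members. Of all genes tested, DESeq2 called 0.293% lower and 0.0886% higher, and limma voom 0.0477% and 0%. The lowest adjusted p of a member in the edgeR fit was 0.554, for Eif3e. At an unadjusted p under 0.05, 13 members (24.1%) were lower in RIP, against 4.28% of all genes tested and 5.79% of the 7334 genes at or above the median level, a range in which 48 of the 54 members lay. In the other direction 0 members reached an unadjusted p under 0.05, against 3.15% of all genes tested and 4.2% of those at or above the median level. The log2 fold change was below 0 for 37 members (68.5%), against 51.7% of all genes tested and 50.9% at or above the median level, and its median was -0.21 against -0.021. The median of members was -0.098 without input 3, against 0.018 for all genes tested, and -0.11 with limma voom, against 0.073. All 4 RIP libraries lay below all 4 input libraries for 5 members (9.26%, against 2.52% of all genes tested and 3.31% at or above the median level), namely Eif3e, Tpt1, Eif2s3x, Eef1a1 and Eif1. They lay above all input libraries for Eif4a1 alone (1.85%, against 2.77% and 2.99%). The members were chosen with earlier results of these data known, so these shares describe the list and are no test of it.

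**Figure D1:**
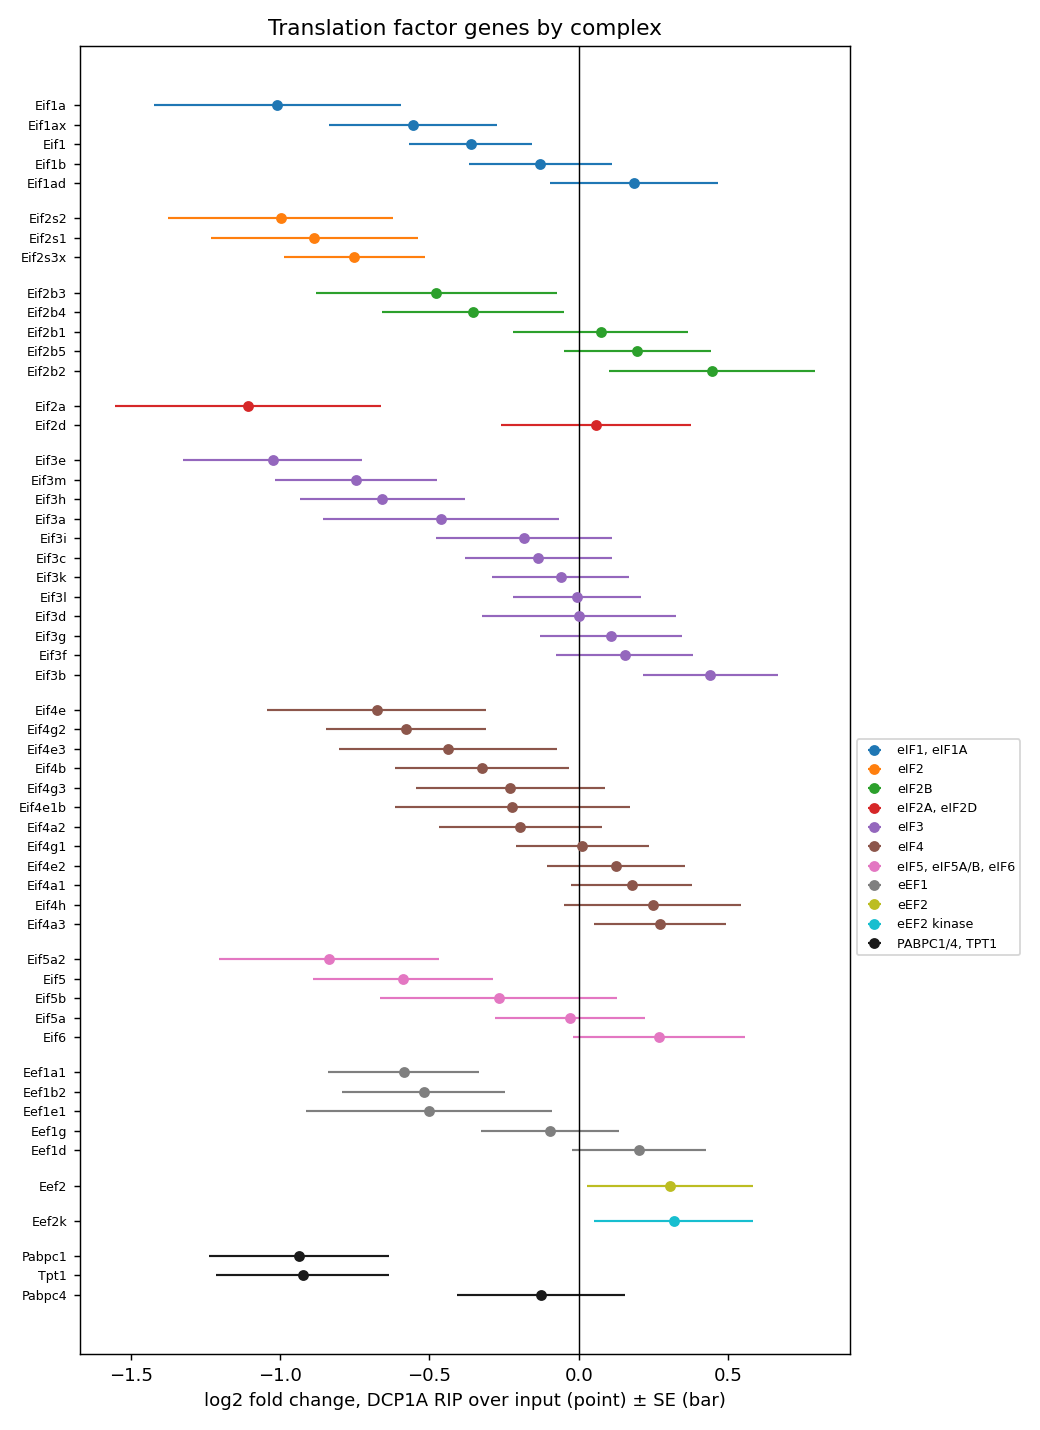
Log2 fold change of DCP1A RIP over input (points, x axis) with its standard error from the edgeR fit (bars) for the 54 tested translation factor genes, grouped and coloured by complex. The 3 eIF2 subunits lie between -0.998 and -0.75, while the genes of eIF2B, eIF3 and eIF4 lie on both sides of 0.

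Gene locations below are RefSeq spans on GRCm38.p6, from the first to the last annotated base with exons and introns. Levels are CPM, the count of a gene scaled to a common library size. Each fold change is RIP over input with a standard error from the edgeR fit to 4 libraries a group. That fit pools information on spread over genes, so this error is not the scatter of the gene's own libraries. Values after ± beside a CPM are SDs of 4 libraries. Levels of different genes cannot be compared, since counts were not divided by transcript length.

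The 3 tested subunit genes of eIF2, which carries the initiator tRNA, had a median log2 fold change of -0.89, and none passed the test. That median was -0.64 without input 3 and with limma voom, -0.76 without RIP 1 and -1.10 without input 1. Eif2s3x, the X-linked γ subunit that binds GTP and the tRNA (chromosome X, 94188709 to 94212651), was at 154, 196, 224 and 170.5 CPM in inputs 1 to 4 and at 81.6, 116, 112 and 132 CPM in RIP libraries 1 to 4. Every RIP library lay below every input library, and the means were 186 ± 30.7 CPM over inputs and 111 ± 21.2 CPM over RIP libraries (log2 -0.75 ± 0.24, edgeR adjusted p = 0.610). Eif2s1, which encodes the α subunit that stress kinases phosphorylate (chromosome 12, 78862072 to 78887010), was at 25.4, 72.6, 70.9 and 41.1 CPM in inputs 1 to 4 and at 20.5, 28.9, 29.6 and 34.6 CPM in RIP libraries 1 to 4. Input 1 lay within the RIP range, while inputs 2 to 4 lay above it (log2 -0.89 ± 0.35, edgeR adjusted p = 0.622). Eif2s2, the β subunit gene (chromosome 2, 154871410 to 154892906), was at 73.8, 67.8, 189 and 47.5 CPM in inputs 1 to 4 and at 34.9, 44.3, 45.2 and 64.8 CPM in RIP libraries 1 to 4. Input 3 stood far above the other libraries, and input 4 fell among the RIP libraries (log2 -0.998 ± 0.38, edgeR adjusted p = 0.622). Without input 3 the log2 fold change of Eif2s2 was -0.40. The Y-linked paralog Eif2s3y had 0 counts in all 8 libraries, which with 3 counts as the limit allows up to 0.102 to 0.255 CPM by library, for counting error only. No reads of the ovaries, which carry no Y chromosome, were therefore assigned to this paralog.

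eIF2B is the exchange factor that reloads eIF2 with GTP, and its 5 subunit genes had a median log2 fold change of 0.073, with 2 below 0 and 3 above. That median turned below 0 without input 1 (-0.10), without RIP 3 (-0.027) and in libraries 3 and 4 alone (-0.047), and was 0.21 without input 4. Eif2b3, of the γ subunit (chromosome 4, 117019399 to 117086852), was at 11.8, 17.6, 43.5 and 18.8 CPM in inputs 1 to 4 and at 16.2, 14.9, 17.8 and 17.2 CPM in RIP libraries 1 to 4. Input 3 was the highest library and the other 7 lay close together (log2 -0.48 ± 0.40), and without input 3 the log2 fold change was 0.044. Eif2b2, of the β subunit (chromosome 12, 85219481 to 85226628), was at 47.6, 65.0, 38.2 and 34.5 CPM in inputs 1 to 4 and at 107, 61.1, 50.9 and 33.4 CPM in RIP libraries 1 to 4. RIP 1 was the highest library and RIP 4 the lowest, so the input values lay within the RIP range (log2 0.45 ± 0.34), and without RIP 1 the log2 fold change was 0.069. Eif2b1, Eif2b4 and Eif2b5 had log2 fold changes of 0.073, -0.35 and 0.19. The difference between the eIF2 and eIF2B medians was not tested. Among the factors that can deliver initiator tRNA without eIF2, Eif2a (chromosome 3, 58525821 to 58557501) was at 22.5, 9.09, 37.6 and 18.1 CPM in inputs 1 to 4 and at 12.6, 7.62, 7.59 and 12.8 CPM in RIP libraries 1 to 4. It had the lowest log2 fold change of all members (log2 -1.11 ± 0.45, edgeR adjusted p = 0.622), but input 2 lay among the RIP libraries. The annotated span of Eif2a overlaps Serp1, so its count is uncertain where reads could be shared. Eif2d was at 42.6 ± 20.5 CPM over inputs and 44.3 ± 4.05 CPM over RIP libraries (log2 0.058 ± 0.32).

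The eIF3 complex is the largest initiation factor, and its subunit genes gave values on both sides of 0. Of 12 tested genes, 9 had a log2 fold change below 0, the median was -0.098, and 3 reached an unadjusted p under 0.05, each with RIP lower (25%, against 4.28% of all genes tested). The median was 0.0085 without input 3, -0.016 in libraries 1 and 2 alone and -0.22 in libraries 3 and 4 alone. Eif3e, whose product bears a PCI domain (chromosome 15, 43250040 to 43282736), was at 91.2, 56.9, 142 and 79.6 CPM in inputs 1 to 4 and at 37.5, 36.1, 53.9 and 54.0 CPM in RIP libraries 1 to 4. The highest RIP value stayed below the lowest input value (92.3 ± 35.8 CPM over inputs and 45.4 ± 9.91 CPM over RIP libraries, log2 -1.02 ± 0.30, edgeR adjusted p = 0.554). Eif3m, another PCI subunit (chromosome 2, 104999656 to 105017027), was at 87.0, 91.7, 123 and 54.2 CPM in inputs 1 to 4 and at 57.0, 51.6, 48.0 and 56.0 CPM in RIP libraries 1 to 4. Inputs 1 to 3 lay above all RIP libraries and input 4 among them (log2 -0.75 ± 0.27, edgeR adjusted p = 0.622). Eif3h, an MPN-domain subunit (chromosome 15, 51786563 to 51865461), was at 77.7, 101, 172 and 152 CPM in inputs 1 to 4 and at 62.9, 92.5, 76.9 and 86.5 CPM in RIP libraries 1 to 4. Inputs 3 and 4 were high and input 1 lay within the RIP range (log2 -0.66 ± 0.28, edgeR adjusted p = 0.627).

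At the other end of eIF3 was Eif3b, the scaffold of the subunits near the mRNA entry channel (chromosome 5, 140419305 to 140443358). It was at 124, 152, 168 and 194 CPM in inputs 1 to 4 and at 231, 239, 209 and 186 CPM in RIP libraries 1 to 4. Only input 4 lay above a RIP library, and Eif3b had the highest log2 fold change of the complex (log2 0.44 ± 0.23, edgeR adjusted p = 0.693). Its partners Eif3g (log2 0.11 ± 0.24) and Eif3i (log2 -0.18 ± 0.29) lay on both sides of 0. The 8 genes of the PCI and MPN core, Eif3a, Eif3c, Eif3e, Eif3f, Eif3h, Eif3k, Eif3l and Eif3m, had a median of -0.30, and Eif3b, Eif3g and Eif3i had one of 0.11. This split follows the known architecture of the complex, was chosen after the values were seen and was not tested. Within the core, Eif3f, Eif3l, Eif3k and Eif3c had log2 fold changes of 0.15, -0.0054, -0.061 and -0.14. Eif3a was at -0.46, with 567 CPM in input 3 against 156, 149.5 and 236 CPM in inputs 1, 2 and 4, and turned to 0.17 without input 3. Without that library Eif3c, Eif3f and Eif3l were also above 0, at 0.038, 0.24 and 0.0085. Eif3e, Eif3m, Eif3h and Eif3k stayed below 0, at -0.73, -0.54, -0.46 and -0.14. Eif3b, Eif3g and Eif3i were then at 0.47, 0.18 and -0.21. Eif3d, a cap-contacting subunit, had 122 ± 56.8 CPM over inputs and 122 ± 30.2 CPM over RIP libraries, and its groups overlapped. The row named Eif3j was not tested. It held 172 estimated counts in input 1, 129 and 146 in RIP 2 and RIP 3, 0.600 in input 2 and 0 in the other 4 libraries. RefSeq gives that symbol as a synonym of Eif3j1, which has a separate near-identical gene, Eif3j2, and 4 of its values were not whole numbers, so how its reads were assigned is uncertain and no fold change is given.

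The 12 eIF4 genes had a median of -0.21, with 7 below 0 and 5 above, and 1 reached an unadjusted p under 0.05 with RIP lower (8.33%, against 4.28% of all genes tested). The median was -0.0059 without input 3, -0.048 without RIP 1 and -0.020 with limma voom. Among the cap-binding proteins, Eif4e (chromosome 3, 138526191 to 138559696) was at 52.9, 27.8, 71.7 and 76.0 CPM in inputs 1 to 4 and at 17.1, 34.9, 43.5 and 47.4 CPM in RIP libraries 1 to 4. Input 2 was lower than all RIP libraries except RIP 1, so the groups overlapped (log2 -0.68 ± 0.37, edgeR adjusted p = 0.712). Eif4e1b, the cap-binding paralog known from oocytes (chromosome 13, 54783994 to 54788459), was at 17.2, 52.6, 17.4 and 35.9 CPM in inputs 1 to 4 and at 17.5, 35.6, 28.0 and 24.3 CPM in RIP libraries 1 to 4. Input 2 was its highest library, and input 1, input 3 and RIP 1 were its lowest (log2 -0.22 ± 0.39). Input 2 also had the highest summed level of 12 oocyte marker genes, 2518 CPM against 1523 to 2138 CPM in the other 7 libraries, and whether oocyte content set the level of Eif4e1b was not tested. The repressive cap-binding paralog Eif4e2 was at 64.2 ± 7.40 CPM over inputs and 70.0 ± 5.96 CPM over RIP libraries (log2 0.12 ± 0.23) and Eif4e3 at 19.9 ± 7.29 CPM over inputs and 14.7 ± 0.69 CPM over RIP libraries (log2 -0.44 ± 0.37).

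Of the eIF4A helicases, Eif4a1 (chromosome 11, 69666936 to 69672423) was at 494, 501, 453 and 474 CPM in inputs 1 to 4 and at 544, 549, 561 and 517 CPM in RIP libraries 1 to 4. Its RIP values all lay above its input values, but by log2 0.18 ± 0.20, and edgeR's adjusted p was 0.860. Its close paralog Eif4a2 was at 248 ± 65.1 CPM over inputs and 217 ± 64.8 CPM over RIP libraries (log2 -0.20 ± 0.27), and Eif4a3, the exon junction complex helicase, was at 83.5, 97.3, 86.6 and 82.3 CPM in inputs 1 to 4 and at 125, 102, 101 and 94.6 CPM in RIP libraries 1 to 4. Eif4a3 had the highest log2 fold change of the eIF4 genes (log2 0.27 ± 0.22), with RIP 4 below input 2. Of the scaffolds, Eif4g1, which joins cap-binding protein, helicase and poly(A)-binding protein (chromosome 16, 20672720 to 20692883), was at 321, 376, 418 and 487 CPM in inputs 1 to 4 and at 350.2, 427, 381 and 458 CPM in RIP libraries 1 to 4. The groups lay over each other (log2 0.011 ± 0.22), and the sign turned with library size as the only scaling (-0.0085). Eif4g2, a scaffold that lacks the cap-binding protein's site, had 508 ± 126 CPM over inputs and 340.2 ± 104 CPM over RIP libraries (log2 -0.58 ± 0.27, edgeR adjusted p = 0.669), with RIP 4 at 469.8 CPM above inputs 1 and 2. Eif4g3 was at 273 ± 122 CPM over inputs and 233 ± 66.3 CPM over RIP libraries (log2 -0.23 ± 0.32). The helicase cofactors Eif4b and Eif4h had log2 fold changes of -0.32 ± 0.29 and 0.25 ± 0.30.

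Of the genes for scanning and start-site factors, Eif1, which guards start codon choice (chromosome 11, 100319949 to 100322099), was at 305, 338, 336 and 285 CPM in inputs 1 to 4 and at 229, 234, 265 and 255 CPM in RIP libraries 1 to 4. Its spread was small in both groups and the groups did not overlap (log2 -0.36 ± 0.21, edgeR adjusted p = 0.727). Eif1a, which encodes an autosomal copy of eIF1A, was at 20.001, 23.0, 40.9 and 15.2 CPM in inputs 1 to 4 and at 6.80, 13.6, 17.6 and 11.3 CPM in RIP libraries 1 to 4. Input 4 lay within the RIP range and input 3 far above it (log2 -1.01 ± 0.41, edgeR adjusted p = 0.625). The X-linked copy Eif1ax was at 49.3 ± 11.9 CPM over inputs and 33.6 ± 5.04 CPM over RIP libraries (log2 -0.55 ± 0.28), and Eif1b, the paralog of Eif1, at 82.9 ± 10.5 CPM over inputs and 75.9 ± 13.4 CPM over RIP libraries (log2 -0.13 ± 0.24). These paralogs are alike in sequence, and how their reads were divided is not given. Eif1ad, a gene with an eIF1A-like domain that is not known as an initiation factor of the ribosome, was at 53.6, 42.3, 37.7 and 44.7 CPM in inputs 1 to 4 and at 74.9, 42.3, 42.7 and 42.8 CPM in RIP libraries 1 to 4. RIP 1 alone stood high (log2 0.18 ± 0.28), the value without it was -0.064, and its span overlaps Banf1.

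Eif5a2, the less widely expressed of the genes for the elongation factor eIF5A (chromosome 3, 28781032 to 28798846), was at 26.9, 27.6, 38.2 and 19.7 CPM in inputs 1 to 4 and at 8.79, 13.7, 22.3 and 18.2 CPM in RIP libraries 1 to 4. RIP 3 lay above input 4, and the other RIP libraries lay below all inputs (log2 -0.84 ± 0.37, edgeR adjusted p = 0.651). Eif5a, the main copy, had 273 ± 71.2 CPM over inputs and 268 ± 57.9 CPM over RIP libraries (log2 -0.029 ± 0.25). Eif5, the GTPase activator of eIF2, was at 183 ± 83.7 CPM over inputs and 122 ± 29.5 CPM over RIP libraries (log2 -0.59 ± 0.30), and Eif5b, the subunit-joining GTPase, at 50.6 ± 36.8 CPM over inputs and 42.1 ± 11.5 CPM over RIP libraries (log2 -0.27 ± 0.40). In both, input 3 was the highest library, at 306 and 105 CPM. Without input 3 the log2 fold change of Eif5b turned to 0.39. Eif6, which keeps free large ribosomal subunits apart from small ones (chromosome 2, 155819837 to 155826925), was at 205, 167, 92.2 and 125 CPM in inputs 1 to 4 and at 256, 168, 160.0 and 126 CPM in RIP libraries 1 to 4. Its lowest value was in input 3 and its highest in RIP 1 (log2 0.27 ± 0.29), and the log2 fold change was 0.10 without input 3 and 0.040 without RIP 1.

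**Figure D2:**
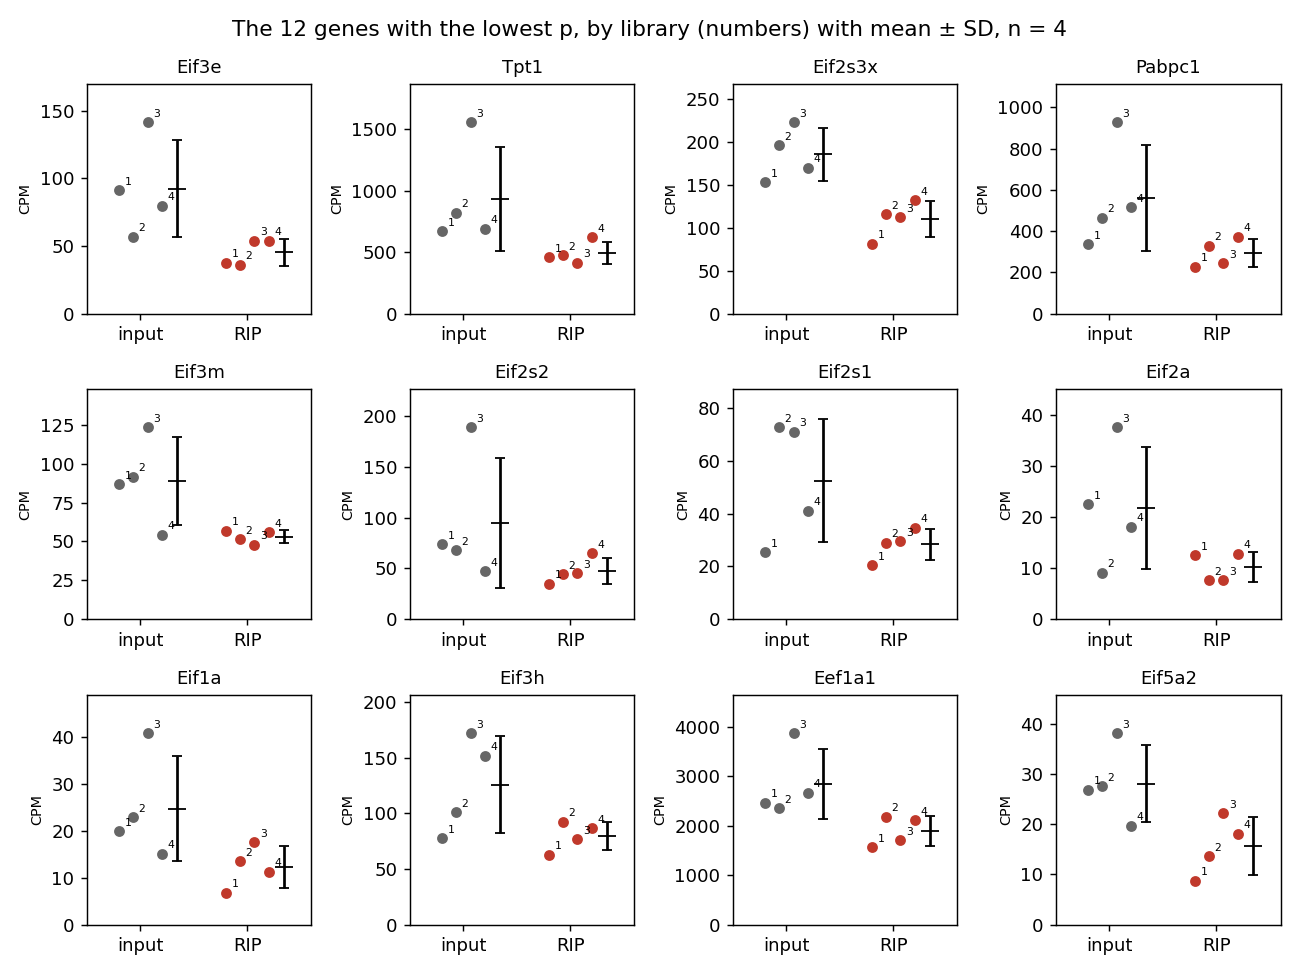
Level in CPM (y axis from 0) of the 12 members with the lowest p, by library. Grey points are inputs and red points are RIP, each with its library number, and bars give the mean ± SD of 4 libraries. Input 3 is the highest library in 11 of the 12 panels, and the groups do not overlap for Eif3e, Tpt1, Eif2s3x and Eef1a1.

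Of the elongation factors, the 5 tested genes named Eef1 had a median log2 fold change of -0.50. That median was the value of Eef1e1, listed by its symbol but part of another complex, as given below. Apart from it, the values were -0.59 for Eef1a1, -0.52 for Eef1b2, -0.097 for Eef1g and 0.20 for Eef1d. Eef1a1, which encodes the carrier of aminoacyl-tRNA (chromosome 9, 78478453 to 78481724), was at 2465, 2349, 3869.7 and 2665 CPM in inputs 1 to 4 and at 1567, 2175, 1707 and 2110.4 CPM in RIP libraries 1 to 4. All RIP values lay below all input values (2837 ± 701 CPM over inputs and 1889.8 ± 299 CPM over RIP libraries, log2 -0.59 ± 0.25, edgeR adjusted p = 0.641). Processed copies of Eef1a1 are common in mammalian genomes, and how reads were shared with them is not given. The muscle and nerve form Eef1a2 had 0 counts in all 8 libraries. Among the exchange factor subunits, Eef1b2 was at 271 ± 111 CPM over inputs and 189 ± 21.7 CPM over RIP libraries (log2 -0.52 ± 0.27) and Eef1g at 555 ± 102 CPM over inputs and 519 ± 81.6 CPM over RIP libraries (log2 -0.097 ± 0.23). Eef1d, the third of them (chromosome 15, 75894796 to 75909784), was at 123, 172, 113 and 121 CPM in inputs 1 to 4 and at 143, 163, 151 and 152 CPM in RIP libraries 1 to 4. Inputs 1, 3 and 4 lay below the RIP libraries and input 2 above them (log2 0.20 ± 0.22). Eef1e1, a scaffold protein of the multi-tRNA synthetase complex, was at 18.9 ± 4.46 CPM over inputs and 13.4 ± 5.35 CPM over RIP libraries (log2 -0.50 ± 0.41), with 5.61 CPM in RIP 1. Eef2, the translocase (chromosome 10, 81176631 to 81182509), was at 4221, 3896, 2334 and 2893 CPM in inputs 1 to 4 and at 5479, 3968, 3792 and 3227 CPM in RIP libraries 1 to 4. Its highest value was in RIP 1 and its lowest in input 3, the reverse of Eef1a1 (3336 ± 875 CPM over inputs and 4117 ± 962 CPM over RIP libraries, log2 0.30 ± 0.28, edgeR adjusted p = 0.827). Eef2k, which phosphorylates and slows eEF2, was at 56.0 ± 15.9 CPM over inputs and 69.7 ± 9.42 CPM over RIP libraries (log2 0.32 ± 0.27).

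Pabpc1, the main cytoplasmic poly(A)-binding protein (chromosome 15, 36595658 to 36609581), was at 338, 465, 929 and 515 CPM in inputs 1 to 4 and at 227, 329, 244 and 373 CPM in RIP libraries 1 to 4. RIP 4 lay above input 1, and the other libraries were separated by group (561 ± 256 CPM over inputs and 293 ± 69.2 CPM over RIP libraries, log2 -0.94 ± 0.30, edgeR adjusted p = 0.617). Pabpc4, its inducible paralog (chromosome 4, 123282303 to 123298925), was at 50.3, 64.4, 73.5 and 94.0 CPM in inputs 1 to 4 and at 40.5, 77.4, 65.1 and 75.4 CPM in RIP libraries 1 to 4. Its groups overlapped (log2 -0.13 ± 0.28). Tpt1, a small growth-related protein whose mRNA is a standard TOP message (chromosome 14, 75845256 to 75848303), was at 669, 819.6, 1558 and 689.6 CPM in inputs 1 to 4 and at 458, 475, 414 and 623 CPM in RIP libraries 1 to 4. The highest RIP value, in RIP 4, lay below the lowest input value (934 ± 422 CPM over inputs and 492 ± 90.5 CPM over RIP libraries, log2 -0.92 ± 0.29, edgeR adjusted p = 0.610). Of the members, 11 stood on a literature list of TOP mRNAs, namely Eef1a1, Eef1b2, Eef1d, Eef1g, Eef2, Eif3e, Eif3f, Eif3h, Eif4b, Pabpc1 and Tpt1. Of these 11, 8 had a log2 fold change below 0, 5 reached an unadjusted p under 0.05 with RIP lower (45.5%, against 4.28% of all genes tested and 5.79% at or above the median level), and none passed the test. Their median was -0.52, against -0.18 for the 43 other tested members, a difference that was not tested. Eef1d, Eef2 and Eif3f lay above 0, so the listed TOP mRNAs did not share a sign. In input 3 the median of log2 CPM minus each gene's mean was 0.83 for these 11 and 0.16 for the other members. Without input 3, Eef1b2, the median gene of the list, was at -0.20. Eif3e, Pabpc1 and Tpt1 then still reached an unadjusted p under 0.05, while Eef1a1 and Eif3h, at -0.39 and -0.46, did not.

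The libraries did not contribute evenly to these values. Input 3 was the highest of the 8 libraries for 23 members (42.6%, against 22.9% of all genes tested and 25.7% at or above the median level) and RIP 1 the lowest for 20 (37.0%, against 21% and 23.2%). Among the 13 members lower at an unadjusted p under 0.05, input 3 was the highest for 12. The SD over inputs exceeded that over RIP libraries for 44 members (81.5%, against 69.7% and 70.9%). Members took 1.31%, 1.31%, 2.01% and 1.54% of the counts in inputs 1 to 4 and 1.18%, 1.36%, 1.35% and 1.51% in RIP libraries 1 to 4. Input 3 stood highest and RIP 1 lowest, and the other 6 libraries of the groups overlapped. Without input 3, the number of members lower at an unadjusted p under 0.05 was 4 (Eif2s3x, Eif3e, Pabpc1 and Tpt1), where 2.54% of all genes were, and the median of the 13 genes was -0.57 in place of -0.89. Without RIP 1 the number was 7, where 2.6% of all genes were. The log2 fold changes of the 13 genes reached -0.39 at the highest without input 3 and -0.41 without RIP 1. Of all 54 tested members, 8 changed sign without input 3 and 4 without RIP 1.

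**Figure D3:**
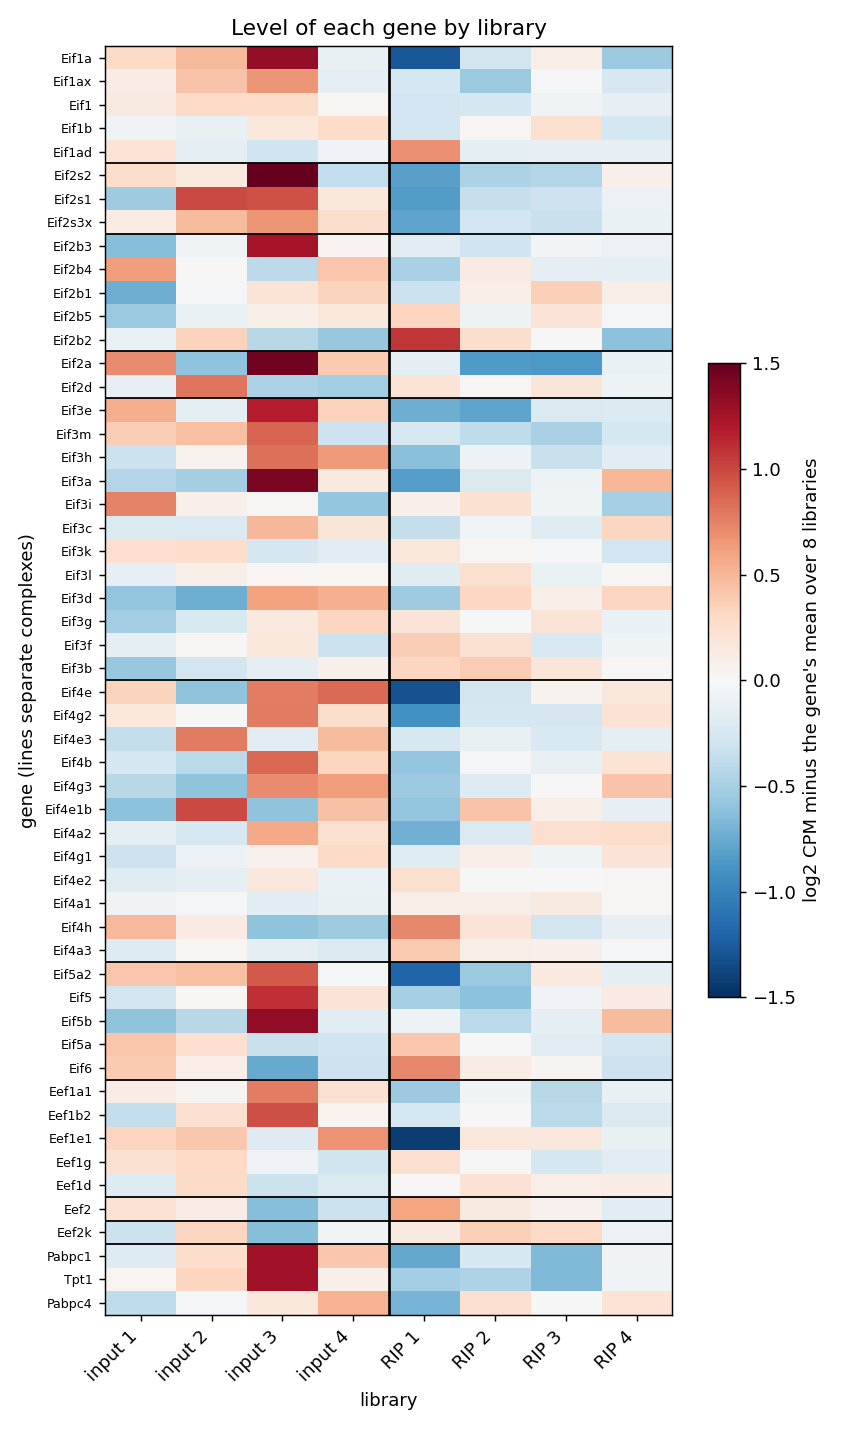
Level of the 54 tested members (rows, grouped by complex) in the 8 libraries (columns, inputs left of the line), as log2 CPM minus each gene's mean over the 8 libraries. Red is above and blue below that mean. Input 3 is the highest library for 23 members and RIP 1 the lowest for 20.

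Members were also compared within the libraries numbered 1 and 2 and within those numbered 3 and 4, a split taken from earlier results of these data. Inputs 1 and 2 held 13098153 and 13142790 counts, and inputs 3 and 4 held 25757618 and 25030606. RIP libraries 1 to 4 held 16325387, 21269891, 20199164 and 18658435. The part of depth in these values was not tested. Of the 54 tested members, 27 had a log2 fold change below 0 in both sets, 10 had it above 0 in both and 17 differed in sign. The 13 members lower at an unadjusted p under 0.05 were chosen on these same libraries, which nearly fixes their sign, since 99.7% of all genes chosen the same way were below 0 in both sets. Their values ran from -1.28 to -0.20 in libraries 1 and 2 and from -1.45 to -0.52 in libraries 3 and 4. Eif3e was at -1.01 and -1.04 and Eif2s3x at -0.83 and -0.69, so their values in the sets lay near each other. Pabpc1 was at -0.53 and -1.23, Eif3h at -0.20 and -0.99, and Eef1b2 at -0.10 and -0.89. The eIF4 median was 0.093 in libraries 1 and 2 and -0.13 in libraries 3 and 4, while the eIF2 median was -0.84 and -0.80. All tested eIF2 genes were among the 13 chosen on these same libraries. No member passed the test in either set. Of all genes tested, 0.169% were called lower and 0.0211% higher in libraries 1 and 2, and 0.0389% and 0% in libraries 3 and 4. Summed levels of 10 granulosa cell markers were 1986, 2540, 1103 and 1149 CPM in inputs 1 to 4 and 2159, 1951, 1334 and 1429 CPM in RIP libraries 1 to 4. Libraries 1 and 2 were higher in both groups, as they were for 8 stromal markers, whose sums were 5756 to 8073 CPM in those libraries and 4273 to 4869 CPM in libraries 3 and 4. The 5 immune cell markers summed to 13.4 to 21.0 CPM in input and 24.8 to 37.3 CPM in RIP, without overlap. The part of these levels in the members' values was not tested. In whole tissue, fewer cells of a type and less RNA per cell cannot be told apart. Of the marker genes of oocytes (12), granulosa cells (10), stroma (8), theca (6) and immune cells (5), 0 were without counts in every library. Only 4 of the theca and 4 of the immune markers had enough counts to be tested. Among all markers tested in these lists, 0 passed, where 0.0409% of all genes tested were called lower and 0% higher.

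**Figure D4:**
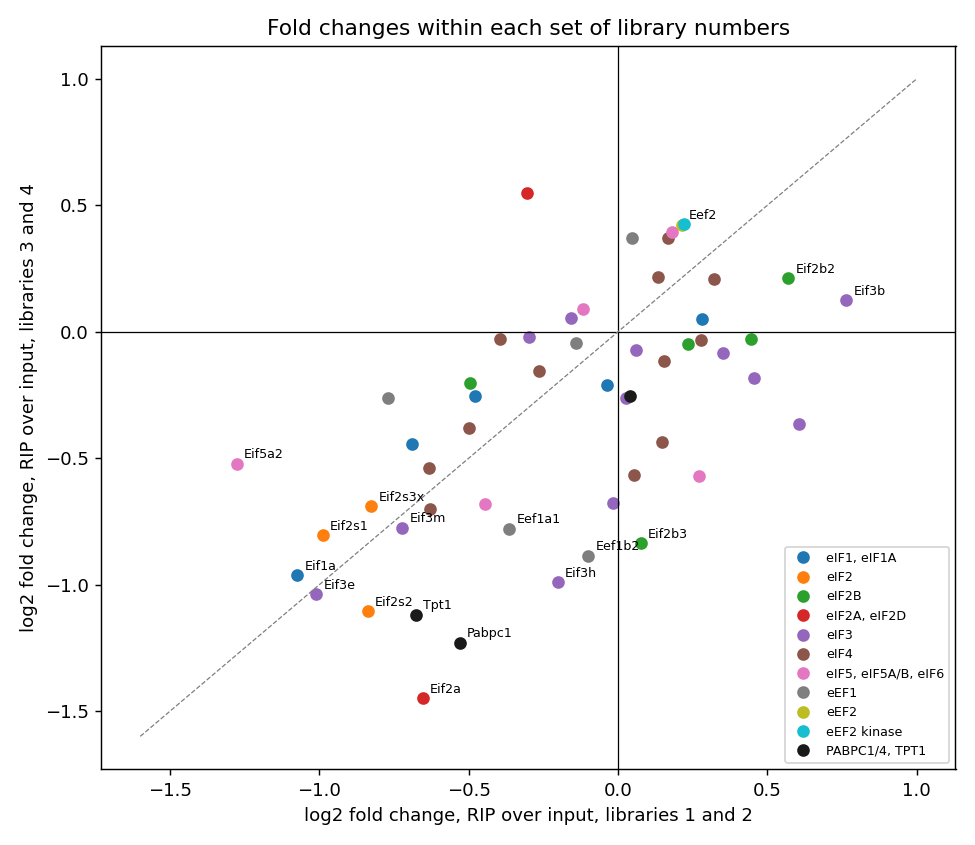
Log2 fold change of RIP over input within libraries 1 and 2 (x axis) and within libraries 3 and 4 (y axis) for the 54 tested members, coloured by complex, with the line of equal values dashed. The 13 members lower at an unadjusted p under 0.05 lie at the lower left, below 0 on both axes, and 17 members differ in sign between the sets.

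Members were deeply counted. Libraries held 13098153 to 25757618 counts, and the lowest count of a tested member in any library was 76, for Eef1e1 in RIP 1. The median standard error of a member's log2 fold change was 0.28, against 0.40 over all genes tested.

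Genes of translation outside the rule gave no calls either, where 0.0409% of all genes tested were called lower and 0% higher. Of 22 regulators, among them the eIF4E-binding proteins, the eIF2 kinases, the Larp proteins and the eIF4E transporter, 0 passed the test and the median was -0.075. The lowest p was that of Larp4, which binds poly(A) and its binding protein and was at 85.5 ± 18.7 CPM over inputs and 48.5 ± 13.7 CPM over RIP libraries (log2 -0.82 ± 0.27, edgeR adjusted p = 0.622) with all RIP libraries below all inputs. Next was Eif4ebp2, an eIF4E-binding repressor, at 61.6 ± 16.1 CPM over inputs and 97.5 ± 42.9 CPM over RIP libraries (log2 0.66 ± 0.31, edgeR adjusted p = 0.673). Of 10 termination and ribosome recycling genes 0 passed, with a median of -0.37, and the recycling ATPase gene Abce1 was at 75.3 ± 23.3 CPM over inputs and 35.8 ± 17.5 CPM over RIP libraries (log2 -1.07 ± 0.37, edgeR adjusted p = 0.622) and the release factor gene Etf1 at 99.0 ± 33.9 CPM over inputs and 67.9 ± 7.16 CPM over RIP libraries (log2 -0.54 ± 0.27, edgeR adjusted p = 0.686). Of 9 mitochondrial translation factor genes 0 passed, with a median of -0.27. The recycling factor gene Mrrf was at 15.5 ± 3.64 CPM over inputs and 8.20 ± 4.04 CPM over RIP libraries (log2 -0.92 ± 0.47, edgeR adjusted p = 0.693), and Tufm, the mitochondrial counterpart of Eef1a1, at 62.0 ± 22.9 CPM over inputs and 93.3 ± 22.5 CPM over RIP libraries (log2 0.59 ± 0.30, edgeR adjusted p = 0.693). Of 10 genes of the multi-tRNA synthetase complex 0 passed, with a median of -0.21, and Rars and Dars, which charge arginine and aspartate tRNAs, had log2 fold changes of -0.85 ± 0.41 and -0.51 ± 0.28. Of 4 tested genes for other poly(A)-binding proteins 0 passed, and the lowest p were those of Pabpc5 (-2.55 ± 1.30) and Pabpc4l (-1.28 ± 0.70), both at most at 14.5 CPM in a library. At an unadjusted p under 0.05, 1 of the 22 regulators (4.55%) and 1 of the 10 termination and recycling genes (10%) were lower in RIP. In the other lists 0 were, against 4.28% of all genes tested. Cytosolic ribosomal protein genes were not analysed here.

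In all, 10 tested members carry annotated snoRNA genes within their span, the small RNAs that guide rRNA modification and are processed from host introns. They are Eef1b2, Eef2, Eif3a, Eif4a1, Eif4a2, Eif4g1, Eif4g2, Eif5, Pabpc4 and Tpt1. The median log2 fold change was -0.33 for these 10 and -0.20 for the other 44, and this difference was not tested. Snora81, in Eif4a2, had its own row with 571 ± 384 CPM over inputs and 88.9 ± 53.5 CPM over RIP libraries (log2 -2.68 ± 0.51, edgeR adjusted p = 0.140), while Eif4a2 had log2 -0.20 ± 0.27. Snora31, in Tpt1, was at 9.39 ± 3.91 and 2.81 ± 1.81 CPM, with a log2 fold change of -1.73 ± 0.66, and Snora28, in Eif5, was at -1.33 ± 0.62. Snora41 in Eef1b2 and Snord66 in Eif4g1 had log2 fold changes of -0.23 ± 0.57 and -0.15 ± 0.68. Whether reads of such RNAs were also counted in their hosts is not known.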

How the data were processed

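RNA of the ovarian cortex was sequenced from 4 input samples, and RNA recovered with DCP1A from 4 RIP samples. The authors deposited 1 table of estimated counts per gene, unscaled, with under 2% of each library's values not whole, and these were rounded. Per the submitters' processing notes reads were placed on mm10, while the aligner, counter, annotation and use of strand were not given in the sources used here, and reads of overlapping genes and near-identical copies may be shared. Genes passing filterByExpr (count 10, total 15) were fitted with edgeR 4.0.16 in R 4.3.3, with TMM scaling and robust quasi-likelihood tests over all genes and Benjamini-Hochberg adjustment at 0.05. The code was tested on simulated data. The alternatives were other scalings, filters, DESeq2 1.42.0, limma 3.58.1, blocks and left-out libraries. Members and lists were chosen with earlier results of these data known, as were the subgroups of eIF3 and eIF4, chosen after their values were seen. Values in every library are given for the 12 members with the lowest p, for the lowest and highest log2 fold change in each complex with at least 4 tested members, and for Eif2s1, Eif2s3x, Eif2s3y, Eif4e, Eif4e1b, Eif4g1, Eef1a1, Eef1a2, Eef2, Eif3e, Pabpc1, Pabpc4 and Tpt1, and means for the 2 genes with the lowest p in each list outside the members. Eif1 and Eif4a1, whose groups do not overlap, were added after their values were seen. Limits from a count of 0 use 3 counts and cover counting error only. Libraries with the same number were not treated as paired. Sequences are RefSeq's, and a run was sought on the sense strand as C followed by at least 4 of C or T.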

Additional observations from a re-analysis of the deposited data

Results flagged for a closer look

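In 4 of 108 groups of 4 libraries examined, 1 member's library stood further from its nearest neighbour, as a share of the group's range, than Dixon's 95% critical value. Chance gives about 1 in 20, or 5.4 such groups. Eif1ad in RIP had a share of 0.986, with RIP 1 at 74.9 CPM and the others at 42.3 to 42.8 CPM. Eif4e2 in RIP had a share of 0.938, with RIP 1 at 78.9 CPM and the others at 66.6 to 67.4 CPM. Eif5b in input had a share of 0.874, with input 3 at 105 CPM and the others at 27.7 to 37.6 CPM. Tpt1 in input had a share of 0.831, with input 3 at 1558 CPM and the others at 669 to 819.6 CPM.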

How the results depend on the processing

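No member passed an adjusted p of 0.05 under any of 20 alternatives, where the lowest adjusted p was 0.0573, for Eif3e with numbers 1 and 2 against 3 and 4 as a block. Over all genes, calls lower and higher were 43 and 13 with DESeq2, 42 and 13 with the replicate block, 43 and 12 with numbers 1 and 2 against 3 and 4 as a block, and 24 and 3 in libraries 1 and 2 alone. Leaving out 1 library gave 4 to 16 lower (15 without input 3, 16 without RIP 1) and 0 to 1 higher. Members lower at an unadjusted p under 0.05 numbered 7 in libraries 1 and 2 alone (3.86% of all genes) and 4 to 13 with 1 library left out (2.44% to 5.61% of all genes), with 4 without input 3 and 7 without RIP 1. Members higher numbered 1, always Eif3b, with the replicate block, with numbers 1 and 2 against 3 and 4 as a block and in libraries 1 and 2 alone, where 6.64%, 6.61% and 4.19% of all genes were, and 0 to 1 with 1 library left out. The eEF1 median, with Eef1e1 included, was -0.33 with limma voom, -0.14 in libraries 1 and 2 alone and -0.26 in libraries 3 and 4 alone. It was -0.59 to -0.20 with 1 library left out. The eIF4 median was 0.093 in libraries 1 and 2 alone. Over all 54 tested members, signs changed in 65 of 1080 values, in 21 genes, 17 of them by leaving out 1 library, and in 0 of the 18 genes with a log2 fold change of at least 0.5 in size. Eif1ad was at -0.015 with limma voom and -0.064 to 0.28 with 1 library left out, Eif2b3 at 0.076 in libraries 1 and 2 alone and -0.69 to 0.044, Eif4e1b at 0.039 with limma voom and -0.42 to 0.16, Eif4g1 at -0.0085 with library size only, -0.11 in libraries 3 and 4 alone and -0.080 to 0.12, and Pabpc4 at 0.041 in libraries 1 and 2 alone and -0.26 to 0.046. The cause was not tested. Same-numbered input and RIP libraries had deviations correlated at 0.162, 0.0915, 0.178 and 0.118 for numbers 1 to 4, so number 2 fell under 0.1, and not every library correlated best with its own number.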
